A study of Arabidopsis thaliana with 8 samples.

Results

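The combination of the as1-1 and tfl2-1 mutations in Arabidopsis thaliana is described here as a departure from additivity. For each probe, the difference between WT and as1-1 was subtracted from the difference between tfl2-1 and as1-1 tfl2-1, so that a departure of 0 on the log2 scale means that as1-1 changed the transcript by the same factor in both backgrounds. A departure of 1 means that the factor was 2-fold higher in the tfl2-1 background, and a departure of -1 that it was 2-fold lower. All 8 arrays of the series enter each departure, and it was computed for all 43603 non-control probes. Tests used 1 probe for each of 22668 genes, which had signal well above background on both arrays of at least 1 genotype. The members described by function came from 62 lists of 1344 genes, of which 1045 were tested and 299 were not, because no probe was found for them or all their probes stayed near background.

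The plants were Columbia (Col-0) seedlings harvested whole at 12 days, after growth on MS medium at 22 °C under 16 h of light (about 100 µE) and 8 h of darkness. There were 4 genotypes with 2 arrays each, namely WT, the tfl2-1 mutant, the as1-1 mutant and the as1-1 tfl2-1 combination. The labels give no treatment beyond these conditions, do not describe the lesions, and do not say whether the 2 arrays of a genotype came from separately grown seedlings. What the p-values weigh a difference against is then the scatter of these arrays, part or all of which may be technical.

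AS1 (Asymmetric leaves 1) encodes a MYB transcription factor that works with AS2 to keep class I KNOX homeobox genes silent in developing leaves. TFL2 (Terminal flower 2), also known as LHP1, binds the histone mark left by Polycomb complexes, and plants lacking it are small, flower early and express floral regulators in leaves. Both proteins hold developmental genes in a silent state, and the comparison asks whether losing them together does more, less or the same as the sum of losing each.

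Between 67.1% and 72.5% of probes per array were well above background, and no spot used was saturated. Pearson correlations across probes ranged from 0.99 to 0.9907 between arrays of 1 genotype and from 0.9734 to 0.9889 between genotypes. WT and as1-1 were hybridised on slide 1, and both genotypes carrying tfl2-1 on slide 2. A slide effect that adds the same log2 amount to every array of a slide cancels in the departure, whereas tfl2-1 minus WT cannot be told apart from the slide. Of the spike-in control probes, 8 were bright, and their departures ran from -0.08 to 0.18 with a median of 0. The 6 leaf markers were well above background on all 8 arrays. The root hair markers RHD6 and EXPA7 were well above background on 0 arrays. The root marker SHV2 was so on 3, namely both as1-1 arrays and 1 tfl2-1 array. The root genes SCR and PYK10 were detected on all 8. In whole seedlings, fewer cells of a type and less RNA per cell cannot be told apart.

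The response to as1-1 depended on the tfl2-1 background for 4510 of the 22668 genes (19.9%) at an adjusted p under 0.05. The departure was positive for 2513 genes (11.1%) and negative for 1997 (8.81%). The median departure of all genes tested was 0.05, and the median size among called genes was 0.52. The largest departures leaned the other way, since 463 genes departed by at least 2-fold below the additive level and 315 above it. At an unadjusted p under 0.05 the count was 8178. Leaving out 1 array lowered the count of called genes to between 2560 and 3737. It was 2690 without as1-1 replicate 1, 3006 without tfl2-1 replicate 1, 2560 without tfl2-1 replicate 2, 2954 without as1-1 tfl2-1 replicate 1 and 2979 without as1-1 tfl2-1 replicate 2.

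The 2 as1-1 differences that make up the departure share no arrays and can be set against each other. The mutation changed 4091 genes (18%) in the WT background and 7291 (32.2%) in the tfl2-1 background, and 2242 genes were called in both, which is 54.8% of the first set and 30.8% of the second. Of the genes called in both, 1551 (69.2%) moved in the same direction. The other 691 moved in opposite directions, 345 of them up in as1-1 and down in as1-1 tfl2-1, and 346 the reverse. Across all tested genes the correlation between the 2 differences was 0.17, and it was 0.21 over the 20818 genes well above background on all 8 arrays. Genes of 1 sample are not independent replicates, so these correlations are given as descriptions.

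**Figure D1:**
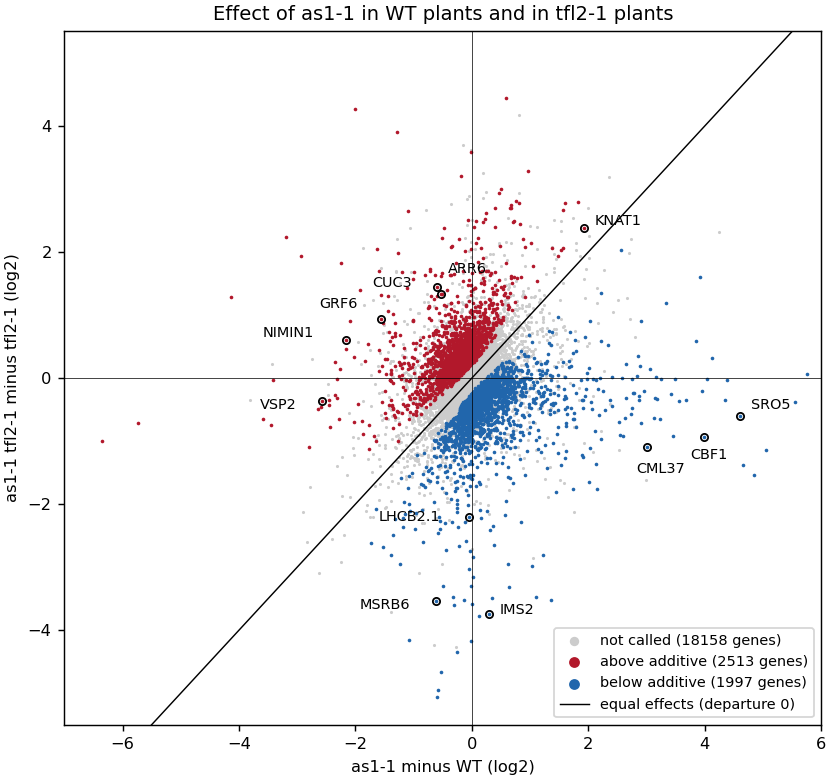
Each point is 1 tested gene, with the as1-1 difference in the WT background (log2) on the x axis and the as1-1 difference in the tfl2-1 background (log2) on the y axis. Genes on the diagonal are additive. The points called above (2513) and below (1997) spread widely to both sides of it, and CBF1 and SRO5 lie far to the right near or below 0 on the y axis.

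The 4510 departures were sorted by comparing the as1-1 tfl2-1 difference from WT with the sum of the 2 single-mutant differences. As1-1 tfl2-1 went beyond the sum, a synergistic pattern, for 724 genes (16.1% of those called and 3.19% of those tested), of which 439 had a negative and 285 a positive sum. It fell short of the sum, an antagonistic pattern, for 1145 genes (25.4% and 5.05%), of which 703 departed upwards. It lay on the opposite side of WT from the sum for 390 genes (8.65% and 1.72%). For the remaining 2251 genes (49.9% and 9.93%) the sum itself was smaller than 0.5, and in 1906 of these each single-mutant difference was also smaller than 0.5. The sum and the departure are built from the same arrays with opposite signs, so error in 1 array pushes a gene towards the short or opposite class, and these shares are descriptions.

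Tfl2-1 differed from WT for 53.5% of all genes, and 3080 genes were changed in both single mutants. In 1184 of them (38.4%, or 5.22% of all genes) the departure was additive in the sense that its 95% interval lay within -0.5 to 0.5, a change of 1.41-fold. The departure was called for 1561, of which 121 were also additive in that sense, and 456 met neither condition. A further 791 genes had a called departure although neither single-mutant difference from WT was called. On the linear scale, where additivity means that signals rather than logarithms add, the sign of the departure was unchanged for 2484 of the 2513 genes above and 1954 of the 1997 genes below the additive level.

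**Figure D2:**
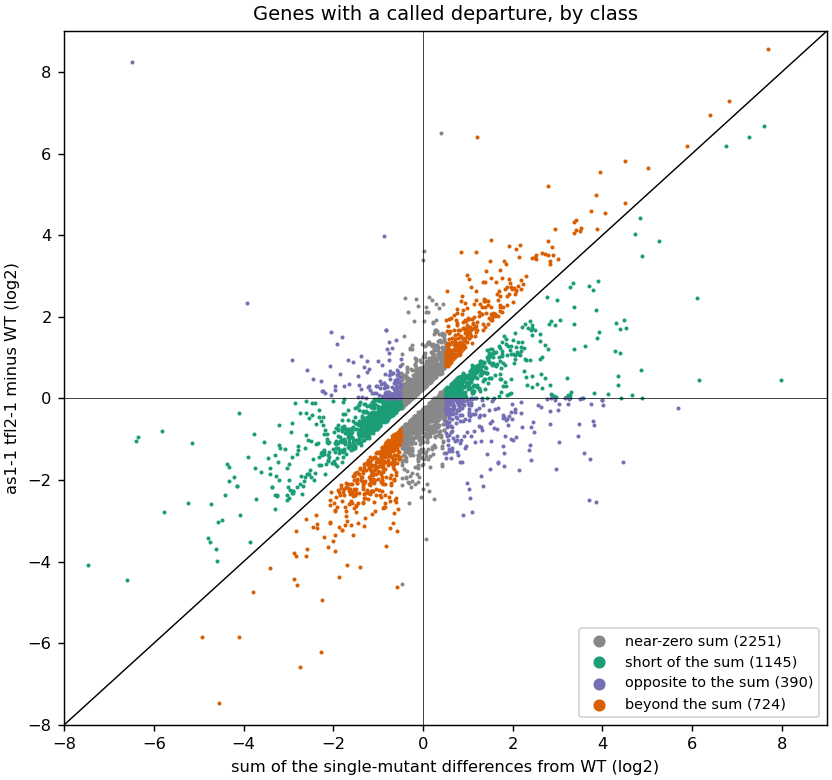
The x axis gives the sum of the 2 single-mutant differences from WT (log2) and the y axis the as1-1 tfl2-1 difference from WT (log2). Each point is 1 gene with a called departure, and genes not called are not drawn. Colours mark the 4 classes of called genes, and the diagonal marks a departure of 0. The 724 genes beyond the sum lie on the far side of the diagonal from 0, and the 1145 short of it lie between the diagonal and 0.

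The AS1 transcript stood at 11.28 and 11.23 (log2 signal) in WT, 10.77 and 10.78 in as1-1, 10.97 and 10.92 in tfl2-1, and 11.24 and 11.39 in as1-1 tfl2-1. Both single mutants lay below WT and as1-1 tfl2-1 overlapped WT. The departure was 0.85 ± 0.086 (SE, adjusted p = 0.00221). The TFL2 transcript was 10.19 and 10.08 in WT, 10.01 and 10.11 in as1-1, 9.02 and 9.05 in tfl2-1, and 9.37 and 9.4 in as1-1 tfl2-1. All 4 arrays carrying tfl2-1 were below the other 4. Its departure of 0.42 (adjusted p = 0.0219) lost its call without 6 of the 8 arrays taken singly, with adjusted p up to 0.0669. Since the lesions are not given, the level of neither transcript checks a label.

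The class I KNOX genes, which keep shoot meristem cells undifferentiated, rose in as1-1 tfl2-1 by about the sum of the single mutants or slightly more. KNAT2 was at 6.72 and 6.81 in WT, 7.88 and 7.88 in as1-1, 8.63 and 8.68 in tfl2-1, and 10.16 and 10.22 in as1-1 tfl2-1. The 4 genotypes did not overlap and stood in that order. The departure of KNAT2 was 0.42 ± 0.073 (adjusted p = 0.0133). KNAT1, also called BREVIPEDICELLUS, differed from WT by 1.93 in as1-1, 0.92 in tfl2-1 and 3.29 in as1-1 tfl2-1. Its departure of 0.44 had an adjusted p of 0.0186, but a second probe gave 0.09, and the mean of the probes gave 0.27 (adjusted p = 0.0593). The call also ended without as1-1 replicate 1, as1-1 replicate 2, tfl2-1 replicate 2 or as1-1 tfl2-1 replicate 2. STM departed by 0.41 (adjusted p = 0.0424), with a second probe at 0.04 and a call that was lost under 9 of 17 other settings. KNAT6 was not called (0.25, adjusted p = 0.21). Of the 4 KNOX genes, 3 were called above the additive level, against 11.1% of all genes. The count was 1 without as1-1 replicate 1, tfl2-1 replicate 2 or as1-1 tfl2-1 replicate 2, and 1 with the mean of a gene's probes.

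Several early stress-response transcription factors, CBF1 among them, were raised in as1-1 and not in as1-1 tfl2-1, and had large negative departures. CBF1, an AP2-type activator of cold-responsive genes, was at 7.34 and 7.42 in WT, 11.45 and 11.29 in as1-1, 7 and 6.96 in tfl2-1, and 6.09 and 6 in as1-1 tfl2-1. The as1-1 arrays stood above the other 6, and the as1-1 tfl2-1 arrays below them. The departure was -4.93 ± 0.10 (adjusted p = 1.64e-05), a 30.4-fold difference between the 2 responses to as1-1. All 6 tested genes of the CBF and DDF group were below the additive level, against 8.81% of all genes, and their median departure was -5.47. CBF1 is the only member measured well above background on all 8 arrays. The others were tested because they were well above background in at least 1 genotype, and a high level in as1-1 lowers the departure. The group count is therefore a description. With no filter on dim probes, 5 of the 6 were called below. DDF1 departed by at most -6.01 as a bound, because as1-1 tfl2-1 was not well above background. For CBF2 and CBF4, tfl2-1 was near background as well, and no bound applies. Background correction by normexp, which compresses dim signals, reduced the group's median to -3.21, CBF2 from -6.38 to -3.52 and CBF4 from -6.02 to -2.89.

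Genes known as targets of the CBF factors also departed downwards, but less steeply and with another profile. Of 14 tested cold-regulated genes, 12 lay below the additive level and 0 above (13 and 0 at an unadjusted p under 0.05 in limma), against 8.81% of all genes below. The count below was 8 with no filter on dim probes and 9 with the replicate number as a block. Their median departure was -0.64, and between -0.68 and -0.6 without 1 array. Of the 12 called, 6 went beyond the sum and 6 had a near-zero sum, against 16.1% and 49.9% of all called genes. As1-1 raised 4 of the 14 in the WT background, where 7.06% of all genes rose. It lowered 11 in the tfl2-1 background, where 16.2% of all genes fell. COR15A, a chloroplast protein that protects membranes on freezing, was at 12.85 and 12.92 in WT, 13.43 and 13.34 in as1-1, 11.45 and 11.47 in tfl2-1, and 10.4 and 10.54 in as1-1 tfl2-1. The as1-1 arrays were the highest and the as1-1 tfl2-1 arrays the lowest, with no overlap. Its departure was -1.48 ± 0.092 (adjusted p = 0.000388). ERD7 departed by -1.46 and the dehydrin LTI30 by -1.04. LTI78, at -0.93, lost its call when any of 6 arrays was left out (adjusted p up to 0.0903).

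Other rapidly induced regulators also had large negative departures. SRO5, a relative of the stress regulator RCD1, was at 6.54 and 6.49 in WT, 11.14 and 11.1 in as1-1, 5.68 and 5.62 in tfl2-1, and 4.89 and 5.18 in as1-1 tfl2-1. It rose in the WT background and fell in the tfl2-1 background (as1-1 difference 4.6 and -0.61), giving a departure of -5.21 ± 0.14 (adjusted p = 2.3e-05). Among the ZAT and AZF zinc finger repressors, 8 of 9 were below the additive level, against 8.81% of all genes, with a median of -1.63. In the CBF and DDF group 5 of 6 lay opposite to the sum. Of the 8 called ZAT and AZF genes, 5 fell short of it and 1 lay opposite, against 25.4% and 8.65% of all called genes. Of the 9 ZAT and AZF genes, 6 rose in tfl2-1, where 25% of all genes rose. STZ, a salt- and drought-induced member, read 10.79 and 10.87 in WT, 13.35 and 13.4 in as1-1, 11.12 and 11.11 in tfl2-1, and 10.19 and 10.24 in as1-1 tfl2-1. Again as1-1 was highest and as1-1 tfl2-1 lowest. Its departure was -3.44 ± 0.071 (adjusted p = 1.64e-05), and RHL41 followed at -3.19. ZAT7 stood at -3.68, which normexp reduced to -2.36.

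Of 13 tested ethylene response factors of the rapid type, 7 were below and 1 above the additive level, against 8.81% and 11.1% of all genes. Their median was -1.01. RRTF1, a redox-responsive member of the family, was at 8.3 and 8.38 in WT, 10.07 and 10.08 in as1-1, 7.62 and 7.69 in tfl2-1, and 5.98 and 5.8 in as1-1 tfl2-1. It departed by -3.51 ± 0.10 (adjusted p = 2.88e-05). ERF104, AT5G51190 and ERF11 departed by -2.23, -2.16 and -2.09. The gene above the additive level was RAP2.6 at 0.92, and it was not called without WT replicate 1, WT replicate 2, tfl2-1 replicate 1 or either as1-1 tfl2-1 array.

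Calmodulin-like genes, calcium sensors that include touch-induced members, showed 6 of 10 below and 2 above, against 8.81% and 11.1% of all genes. The count below was 4 with no filter on dim probes, and also 4 with the replicate number as a block. CML38 stood at 10.76 and 10.83 in WT, 13.66 and 13.74 in as1-1, 10.3 and 10.2 in tfl2-1, and 9.52 and 9.55 in as1-1 tfl2-1. Its departure was -3.62 ± 0.084 (adjusted p = 1.8e-05). CML37 departed by -4.1, or -2.63 under normexp, and TCH2 by -1.42. CML41 went the other way. It fell by 1.06 in as1-1 and differed by -0.16 in as1-1 tfl2-1, a departure of 1.03 (adjusted p = 0.000923). The second gene above, AT1G76640, was at 0.88, and only 1 of the pair was called without WT replicate 1, WT replicate 2 or any as1-1 or tfl2-1 array.

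Of 52 WRKY transcription factors, 6 were above, 8 below and 38 not called, against 11.1% and 8.81% of all genes, so that the count above was near the share of all genes. There were 3 additive WRKY genes with both single mutants called. WRKY40, a repressor in defence and abscisic acid signalling, departed by -2.95 ± 0.091 (adjusted p = 3.46e-05) and WRKY33 by -1.46. The count below was 5 without either WT array, and the count above was 12 with a level-dependent variance prior. Several other genes shared the pattern of CBF1. CYP707A3, an enzyme of abscisic acid breakdown, departed by -3.23, CYP94B3, which oxidises the active jasmonate, by -3.12, and the ubiquitin ligase PUB23 by -2.42. AT5G17350 rose by 4.39 in as1-1 and differed from WT by 0.03 in tfl2-1 (adjusted p = 0.63), and its departure was -4.41. BPS3, of the BYPASS family, departed by -4.38.

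**Figure D3:**
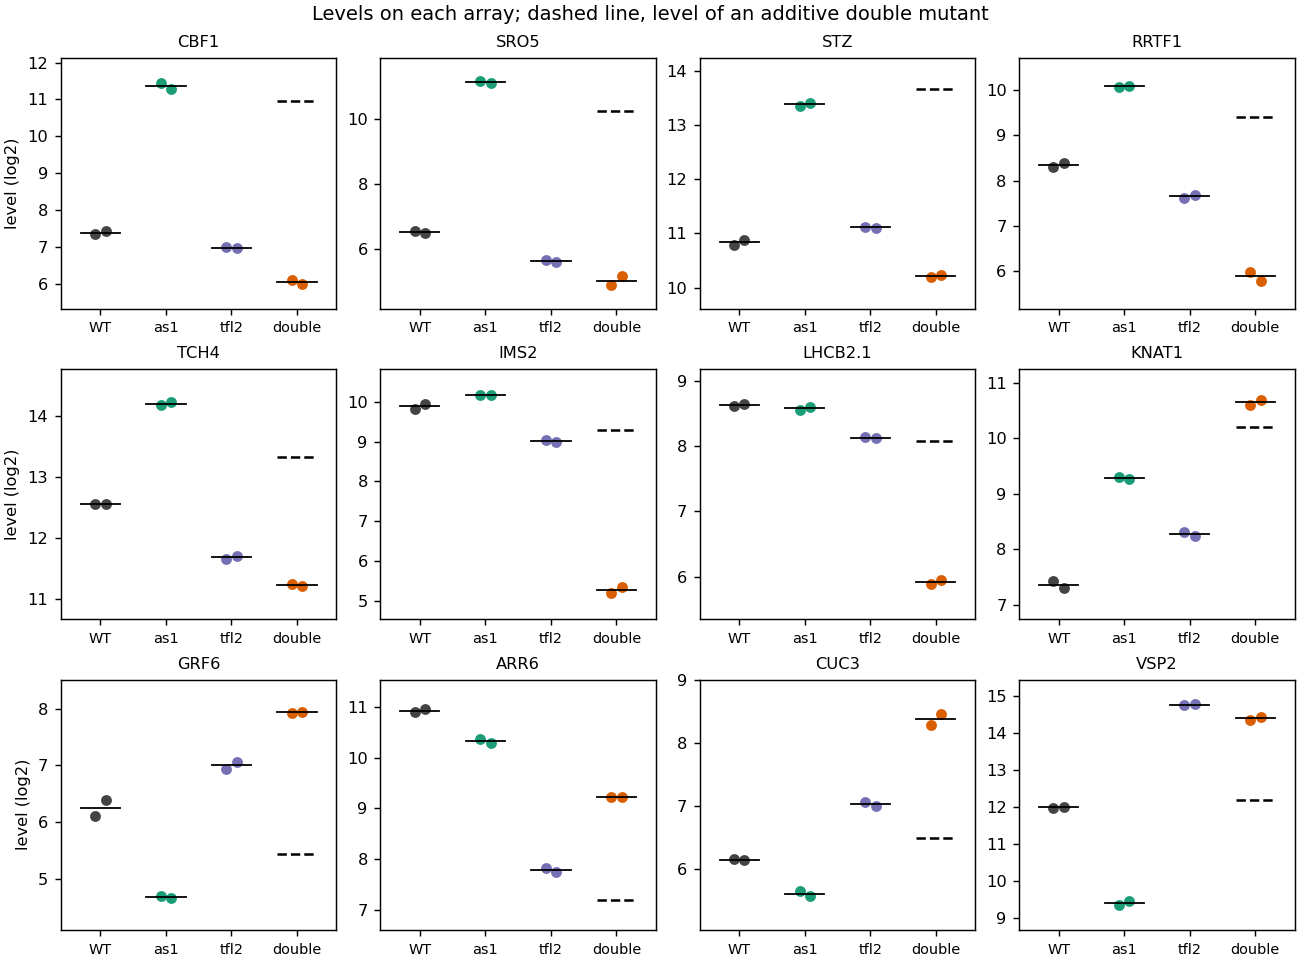
Log2 signal of 12 genes on each of the 8 arrays, grouped by genotype, with a dashed line at the level expected for as1-1 tfl2-1 if the 2 mutations were additive. CBF1, SRO5, STZ, RRTF1 and TCH4 are high in as1-1 alone and lie below the dashed line in as1-1 tfl2-1, whereas KNAT1, GRF6, ARR6, CUC3 and VSP2 lie above it.

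Of 25 xyloglucan endotransglucosylases (XTH), which cut and rejoin wall xyloglucan, 9 were below, 4 above and 12 not called, against 8.81% of all genes below and 11.1% above. Their median of -0.20 was -0.35 without as1-1 replicate 1, -0.33 with the mean of a gene's probes and -0.31 with each array set to its 75th percentile. TCH4, the touch-inducible XTH22, read 12.55 and 12.56 in WT, 14.17 and 14.21 in as1-1, 11.66 and 11.71 in tfl2-1, and 11.24 and 11.22 in as1-1 tfl2-1. Its departure was -2.09 ± 0.063 (adjusted p = 3.25e-05), and XTR6 departed by -2.31. XTH8 had another profile. It differed by -0.09 in as1-1 (adjusted p = 0.249), fell by 1.05 in tfl2-1 and by 2.82 in as1-1 tfl2-1, for a departure of -1.68. The 4 above were XTH9 (0.34), XTH15 (0.35), XTH32 (0.48) and XTH31 (0.61). Their number was 1 without as1-1 replicate 2 or tfl2-1 replicate 1 and 2 without WT replicate 1, without tfl2-1 replicate 2 or with no filter on dim probes. XTH6 was additive.

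Expansins, which loosen walls, had 10 of 21 below and 3 above, against 8.81% and 11.1% of all genes, with a median of -0.31. The median was -0.51 without tfl2-1 replicate 1, -0.19 without tfl2-1 replicate 2, -0.18 under normexp and -0.76 over the 18 genes kept when all 8 arrays had to be well above background. EXLB1, an expansin-like B gene, was at 10.24 and 10.04 in WT, 9.62 and 9.66 in as1-1, 9.84 and 9.8 in tfl2-1, and 6.45 and 6.6 in as1-1 tfl2-1. Each single mutant was slightly below WT and as1-1 tfl2-1 far below both. The departure was -2.8 ± 0.12 (adjusted p = 0.000104), and EXPA11 departed by -1.94. The 3 above were EXPA1 (0.33), EXPA15 (0.43) and EXPA20 (0.5). Leaving out 1 array reduced them to 2, or to 1 without either WT array, as1-1 replicate 1, tfl2-1 replicate 1 or either as1-1 tfl2-1 array.

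Arabinogalactan proteins, glycoproteins of the cell surface, had 19 of 40 below, against 8.81% of all genes, with 1 above (AGP31, 0.46) and a median of -0.44. FLA9, a fasciclin-like member, read 14.74 and 14.72 in WT, 15.18 and 15.24 in as1-1, 14.12 and 14.17 in tfl2-1, and 13.16 and 13.23 in as1-1 tfl2-1. It rose by 0.48 in as1-1 and fell by 0.95 with as1-1 in the tfl2-1 background, a departure of -1.43 ± 0.07 (adjusted p = 0.000155). AGP18 and AGP24 departed by -0.92 and -0.84. The count below was 14 to 18 without 1 array.

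The GROWTH-REGULATING FACTOR (GRF) family and its GIF coactivators, which promote cell proliferation in young leaves, had 10 of 12 tested members above the additive level and 0 below (also 10 and 0 at an unadjusted p under 0.05 in limma), against 11.1% of all genes above. Their median departure was 0.83, or 0.54 under normexp. GRF6 was at 6.11 and 6.38 in WT, 4.7 and 4.67 in as1-1, 6.94 and 7.06 in tfl2-1, and 7.92 and 7.95 in as1-1 tfl2-1. The as1-1 arrays were lowest and the as1-1 tfl2-1 arrays highest. Its departure was 2.5 ± 0.13 (adjusted p = 0.000213), which normexp reduced to 1.39. GRF7 departed by 1.85, GRF5 by 1.31 and the coactivator AN3 by 1.09. GRF5 fell by 0.26 in as1-1 and by 0.21 in tfl2-1 and rose by 0.84 in as1-1 tfl2-1. Across the family, as1-1 lowered 6 members in the WT background, where 11% of all genes fell, and raised 10 in the tfl2-1 background, where 16% rose.

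Genes that mark the boundary between meristem and organs had 6 of 9 above and 0 below (7 and 1 at an unadjusted p under 0.05 in limma) with a median of 0.67. Of all genes, 11.1% were above and 8.81% below. The boundary count above was 4 with no filter on dim probes and 5 with the replicate number as a block. CUC3, a NAC factor that separates organs, was at 6.15 and 6.14 in WT, 5.64 and 5.58 in as1-1, 7.07 and 7 in tfl2-1, and 8.28 and 8.46 in as1-1 tfl2-1. It fell by 0.54 in as1-1 and rose by 1.34 with as1-1 in the tfl2-1 background, a departure of 1.87 ± 0.1 (adjusted p = 0.00021). BOP2, which shapes the leaf base, departed by 0.77 and the homeobox gene ATH1 by 1.06. CUC2 departed by 1.35 (adjusted p = 0.0314), but by 0.62 under normexp, and its call ended without either WT, either tfl2-1 or either as1-1 tfl2-1 array (adjusted p up to 0.0893). Among the LATERAL ORGAN BOUNDARIES domain (LBD) genes, 9 of 18 tested were above and 2 below, against 11.1% and 8.81% of all genes. The count below was near the share of all genes. The LBD median was 0.43, which was 0.19 under normexp and 0.02 over the 41 genes tested with no filter on dim probes. LOB itself was not well above background in as1-1. It was at least 9.29-fold lower there than in WT, and its departure was at least 2.46, with 0.86 under normexp and 1.46 from a second probe. The 2 below were LBD11 (-1.18) and LBD1 (-1.03), which stood at -0.71 and -0.42 under normexp. The number above was 5 without as1-1 replicate 1.

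SPL genes, which drive the passage from juvenile to adult leaves and many of which are silenced by a microRNA, had 7 of 15 above and 0 below (9 and 1 at an unadjusted p under 0.05 in limma) with a median of 0.48. Of all genes, 11.1% were above and 8.81% below. SPL8 read 8.78 and 8.77 in WT, 8.09 and 8.17 in as1-1, 10.49 and 10.4 in tfl2-1, and 11.69 and 11.71 in as1-1 tfl2-1. The as1-1 arrays were below WT, and as1-1 tfl2-1 was above tfl2-1. The departure was 1.9 ± 0.076 (adjusted p = 8.55e-05). SPL9 departed by 1.06 and SPL4 by 0.85. Of 43 cell cycle genes, 10 were above and 0 below (19 and 2 at an unadjusted p under 0.05 in limma), against the same shares. Their median was 0.19. The D-type cyclin CYCD3;3 departed by 0.62 and the CDK inhibitor ICK6 by 1.5, or 0.95 under normexp. The cell cycle count was 4 without as1-1 replicate 1, tfl2-1 replicate 2 or either as1-1 tfl2-1 array, 5 without as1-1 replicate 2 or tfl2-1 replicate 1, and 5 with no filter on dim probes.

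Among the adaxial and abaxial polarity genes, 2 of 5 in the KANADI and ETTIN group and 1 of 5 HD-ZIP III genes were above the additive level and 0 below (2 and 1 above and 0 below at an unadjusted p under 0.05 in limma). Of all genes, 11.1% were above and 8.81% below. Of the 5 tested YABBY genes, 0 had a called departure in limma and 1 had an unadjusted p under 0.05, and 4 of them rose in as1-1, where 7.06% of all genes rose. KAN2, an abaxial regulator, departed by 0.64 (adjusted p = 0.0028). ETT (0.4) and the adaxial gene REV (0.46) lost their calls without at least 4 of the 8 arrays taken singly.

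**Figure D4:**
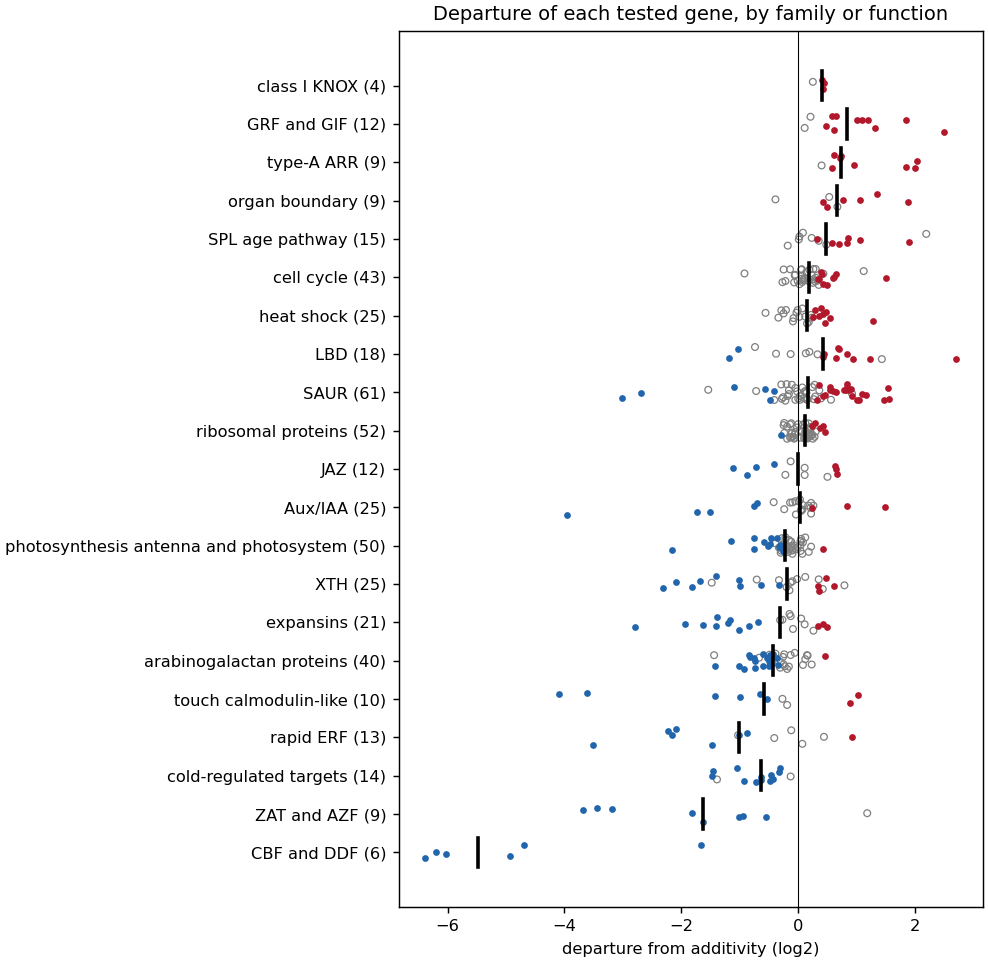
Departure (log2) of each tested gene in 21 lists, with 1 point per gene and a black bar at the list median. Filled red points are called above and filled blue points below the additive level, and open points are not called. The CBF and DDF group sits at a median of -5.47, and the GRF and GIF group at 0.83.

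Type-A response regulators, which are switched on by cytokinin and dampen its signal, were called above the additive level in 8 of 9 cases. Their median was 0.73, and 11.1% of all genes were called above. ARR6 was at 10.9 and 10.95 in WT, 10.38 and 10.29 in as1-1, 7.83 and 7.74 in tfl2-1, and 9.23 and 9.22 in as1-1 tfl2-1. The tfl2-1 arrays were the lowest and as1-1 tfl2-1 lay between tfl2-1 and as1-1. With as1-1 the gene fell by 0.59 in the WT background and rose by 1.44 in the tfl2-1 background, and the departure was 2.04 ± 0.077 (adjusted p = 6.94e-05). ARR15 (2.0), ARR7 (1.84) and ARR9 (0.96) followed. All 9 genes fell in tfl2-1, where 28.5% of all genes fell. Of the 8 called genes, 7 were short of the sum, against 25.4% of all called genes. The count was 6 to 8 without 1 array. LOG5, an enzyme that activates cytokinin, departed by 1.51 (0.92 under normexp), and the cytokinin oxidase CKX4 by -1.03 (-0.57 under normexp), while IPT3, an enzyme of cytokinin synthesis, was additive.

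Auxin-related families split. SMALL AUXIN UP RNA (SAUR) genes, many of which promote cell expansion, had 22 of 61 above and 6 below the additive level, against 11.1% and 8.81% of all genes, so that the count below was near the share of all genes. In tfl2-1, where 28.5% of all genes fell, 41 of the 61 fell. The largest departures were negative, with AT2G35290 at -3.02 and AT3G09870 at -2.69 (-1.4 under normexp). Of the 22 above, AT2G28085 departed by 1.46 and AT4G38840 by 1.16. The number above was 17 to 20 without 1 array. Among 25 Aux/IAA repressors, 5 were below and 3 above, and the count above was near the share of all genes. IAA19 was at 10.61 and 10.59 in WT, 10.53 and 10.61 in as1-1, 8.49 and 8.52 in tfl2-1, and 6.97 and 6.95 in as1-1 tfl2-1. As1-1 overlapped WT, whereas as1-1 tfl2-1 was far below tfl2-1. The departure was -1.51 ± 0.066 (adjusted p = 0.00011).

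IAA6 was not well above background in as1-1 tfl2-1, where it was at least 26.7-fold below WT, and its departure was at most -2.46 (-1.27 under normexp). IAA29 departed by -1.74, or -0.51 under normexp. The other 2 below were IAA7 (-0.76) and IAA14 (-0.71). The 3 above were IAA8 (0.24), PAP1 (0.84) and IAA33 (1.49), and IAA33 was well above background in as1-1 tfl2-1 only (0.37 under normexp). IAA33 was tested only because of its level there, and of the 18 Aux/IAA genes well above background on all 8 arrays, 2 were above. IAA2 was additive. Of 8 auxin synthesis genes, 4 were above (YUC6 at 0.58, TAR2 at 0.62, YUC4 at 1.34 and YUC1 at 1.38) and 2 below (YUC3 at -1.13 and TAA1 at -0.55). Of all genes, 11.1% were above and 8.81% below. YUC4, YUC1 and YUC3 are dim and stood at 0.5, 0.61 and -0.49 under normexp, and 1 gene was called below without as1-1 replicate 2 or either tfl2-1 array.

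Of 12 gibberellin oxidases, 2 were above and 4 below, against 11.1% and 8.81% of all genes. GA3OX1, which makes active gibberellin, was at 10.55 and 10.58 in WT, 10.21 and 10.15 in as1-1, 6.8 and 6.97 in tfl2-1, and 7.67 and 7.73 in as1-1 tfl2-1. It departed by 1.21 ± 0.095 (adjusted p = 0.000898), and GA20OX2, an upstream synthesis gene, by 0.82. The 4 below were all GA2-oxidases, which inactivate gibberellin. GA2OX6 was at 9.88 and 9.8 in WT, 10.92 and 11.03 in as1-1, 9.18 and 9.23 in tfl2-1, and 8.43 and 8.33 in as1-1 tfl2-1. It rose in as1-1 and fell with as1-1 in the tfl2-1 background, a departure of -1.96 ± 0.092 (adjusted p = 0.000136). ATGA2OX1 (-1.23, or -0.74 under normexp), GA2OX4 (-1.5, or -0.71, and near background in tfl2-1) and GA2OX2 (-0.55) were the others. The number below was 2 without WT replicate 1, as1-1 replicate 2 or as1-1 tfl2-1 replicate 2, and 2 with no filter on dim probes.

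Of 5 SEP and AGL6 genes, 2 were below the additive level, SEP3 and SEP4 (-0.37), against 8.81% of all genes. All 5 rose in tfl2-1, where 25% of all genes rose. SEP3, an E-class MADS gene, was at 7.41 and 7.36 in WT, 7.86 and 7.86 in as1-1, 14.44 and 14.6 in tfl2-1, and 14.12 and 13.98 in as1-1 tfl2-1. It rose by 7.13 in tfl2-1 and by 6.67 in as1-1 tfl2-1, and its departure was -0.94 ± 0.1 (adjusted p = 0.00307). The B-class gene PI was at 7.85 and 7.68 in WT, 9.42 and 9.44 in as1-1, 11.33 and 11.38 in tfl2-1, and 11.67 and 11.56 in as1-1 tfl2-1. It rose in as1-1 by 1.67 and by 0.26 with as1-1 in the tfl2-1 background, and departed by -1.4 ± 0.1 (adjusted p = 0.000675). AP3, its B-class partner, was well above background only on the 4 arrays carrying tfl2-1, at least 52.1-fold above WT in tfl2-1 and at least 94.3-fold in as1-1 tfl2-1, and its departure could not be bounded.

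Of the 5 tested AGAMOUS-clade genes, 0 had a called departure in limma and 1 had an unadjusted p under 0.05. Only 1 of the 5 was well above background on all 8 arrays. Under normexp 3 were called above, as were 2 without WT replicate 2 and 1 without WT replicate 1, without as1-1 replicate 1 or with a level-dependent variance prior. All 5 rose in tfl2-1, where 25% of all genes rose. Among the floral meristem identity genes, 2 of 7 were above, against 11.1% of all genes. They were MYB17 (1.4) and AGL8 (0.97), with a second AGL8 probe at 0.6. MYB17 was at 9.23 and 9.06 in WT, 9.08 and 9.17 in as1-1, 10.13 and 10.06 in tfl2-1, and 11.53 and 11.44 in as1-1 tfl2-1. As1-1 overlapped WT, and as1-1 raised the gene in the tfl2-1 background alone (adjusted p of the departure = 0.000753). The shoot identity gene TFL1 departed by 1.2 and its relative BFT by -1.87, which were 0.48 and -0.66 under normexp.

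Of the FLC clade of floral repressors, FLC (-0.61) and MAF4 (-0.65) were below, against 8.81% of all genes, and the other 4 were not called. FLC rose by 0.54 in as1-1, 0.57 in tfl2-1 and 0.49 in as1-1 tfl2-1. The combination differed from tfl2-1 by -0.07 (adjusted p = 0.4). AGL24, a promoter of flowering, departed by 1.06 ± 0.073 (adjusted p = 0.000596), whereas its partner AGL20, better known as SOC1, was additive.

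**Figure D5:**
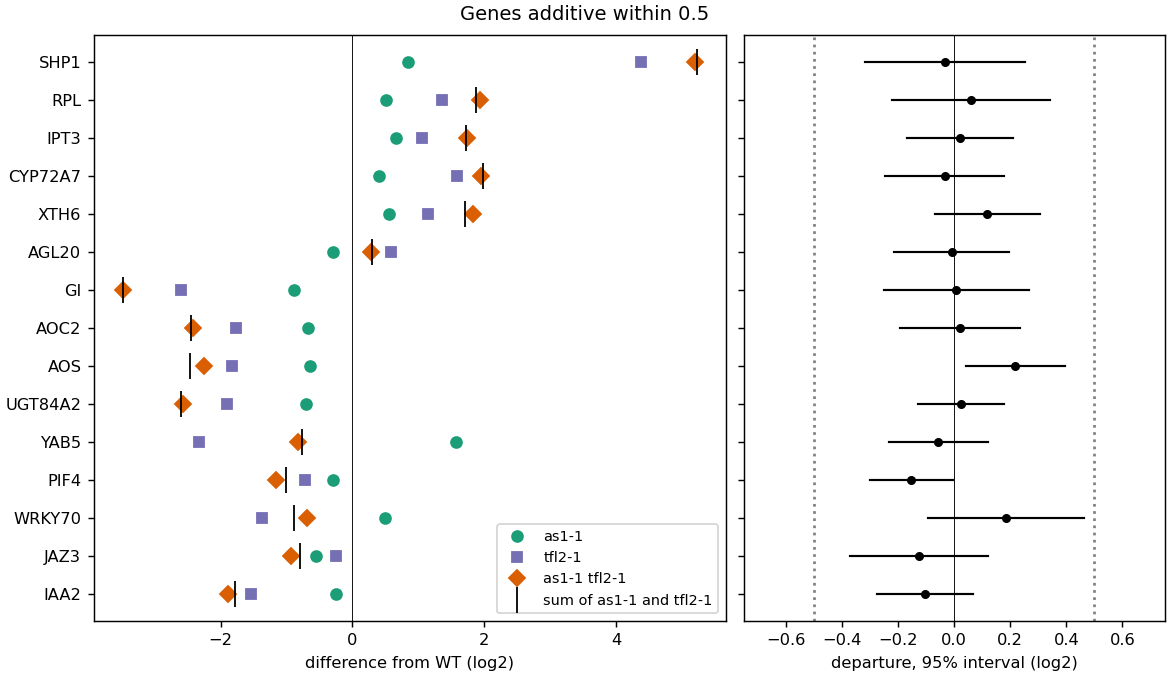
The as1-1 tfl2-1 difference from WT (log2) of the 15 members plotted, all of which passed the additive criterion, shown with the difference of each single mutant and their sum. For each plotted gene the as1-1 tfl2-1 point lies within 0.5 of the sum, from SHP1, which rose by 5.19, to GI, which fell by 3.48.

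The genes closest to additive included strongly changed ones. SHP1, an AGAMOUS-clade gene of the carpel, was at 5.62 and 5.82 in WT, 6.51 and 6.62 in as1-1, 10.12 and 10.09 in tfl2-1, and 10.86 and 10.97 in as1-1 tfl2-1. It rose by 0.85 in as1-1 and by 0.81 with as1-1 in the tfl2-1 background, and its departure was -0.03 (95% interval -0.32 to 0.25). Under normexp it was 0.35 and called. GI, a clock gene that promotes flowering in long days, was at 10.73 and 10.53 in WT, 9.7 and 9.79 in as1-1, 8.02 and 8.05 in tfl2-1, and 7.15 and 7.16 in as1-1 tfl2-1. The 4 genotypes did not overlap, and the departure was 0.01 (-0.25 to 0.27).

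YAB5, an abaxial YABBY gene, was moved in opposite directions by the 2 mutations. It was at 11.81 and 11.73 in WT, 13.37 and 13.31 in as1-1, 9.44 and 9.43 in tfl2-1, and 10.97 and 10.92 in as1-1 tfl2-1. The rise of 1.57 in as1-1 was matched by 1.51 in the tfl2-1 background, and the departure was -0.06 (-0.23 to 0.12). The homeobox gene RPL (0.06), which acts with KNOX proteins, IPT3 (0.02), SOC1 or AGL20 (-0.01), XTH6 (0.12), IAA2 (-0.1), the light-signalling factor PIF4 (-0.15), the salicylic acid regulator WRKY70 (0.18) and UGT84A2 (0.03) were additive as well.

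The jasmonate pathway mixed additive and non-additive members. The synthesis enzymes AOS (0.22) and AOC2 (0.02) fell in both single mutants and were additive. LOX2, an early enzyme of the pathway, was at 15.78 and 15.78 in WT and between 14.97 and 15.13 on the other 6 arrays, and as1-1 tfl2-1 differed from tfl2-1 by -0.12 (adjusted p = 0.0878). Its departure was 0.64 ± 0.064 (adjusted p = 0.00204). Among 12 JAZ repressors, 4 were below (JAZ1, JAZ7, JAZ8 and JAZ5, at -1.12, -0.87, -0.72 and -0.41) and 3 above (JAZ6, JAZ10 and TIFY7, at 0.63, 0.64 and 0.67). JAZ1 differed from WT by -0.24 in as1-1, -0.7 in tfl2-1 and -2.06 in as1-1 tfl2-1. These counts of 12 stand against 8.81% of all genes below and 11.1% above. As1-1 lowered 9 of the 12 JAZ genes in the WT background, where 11% of all genes fell, and 10 in the tfl2-1 background, where 16.2% fell.

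The vegetative storage proteins VSP1 and VSP2, jasmonate-induced acid phosphatases, fell in as1-1, rose in tfl2-1 and stayed near the tfl2-1 level in the combination. VSP2 was at 11.98 and 12 in WT, 9.35 and 9.46 in as1-1, 14.76 and 14.77 in tfl2-1, and 14.35 and 14.43 in as1-1 tfl2-1. It fell by 2.58 with as1-1 in the WT background and by 0.37 in the tfl2-1 background. The departure was 2.21 ± 0.078 (adjusted p = 5.21e-05), and that of VSP1 was 2.09. PDF1.2, a defensin induced by jasmonate and ethylene, was at 8.68 and 8.55 in WT, 8.23 and 7.96 in as1-1, 6.18 and 6.39 in tfl2-1, and 8.43 and 8.58 in as1-1 tfl2-1. It fell in tfl2-1 and overlapped WT in as1-1 tfl2-1, with a departure of 2.74 ± 0.17 (adjusted p = 0.000396).

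Of 14 salicylic acid and pathogenesis-related genes, NIMIN1 (2.76) and PR5 (0.41) were above and CBP60G (-1.03) below. Of all genes, 11.1% were above and 8.81% below, so both counts were near the shares of all genes. NIMIN1, which binds the salicylic acid receptor NPR1, was at 7.37 and 7.44 in WT, 5.4 and 5.08 in as1-1, 5.29 and 5.11 in tfl2-1, and 5.76 and 5.83 in as1-1 tfl2-1. All 6 mutant arrays were below WT, and the as1-1 tfl2-1 arrays were above those of both single mutants. The sum of the 2 falls was -4.37 from a WT mean of 7.4. An additive level that low may lie near background, which was not tested. The departure was 1.51 under normexp. PR5 lost its call without 5 of the 8 arrays taken singly.

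Glucosinolates, the mustard oil precursors, were represented by 17 aliphatic and 12 indole genes. Against 11.1% above and 8.81% below among all genes, the aliphatic genes had 4 above and 3 below, and the indole genes 4 and 2. The largest departure belonged to IMS2, a methylthioalkylmalate synthase of side-chain elongation. It was at 9.82 and 9.96 in WT, 10.18 and 10.18 in as1-1, 9.04 and 8.98 in tfl2-1, and 5.18 and 5.35 in as1-1 tfl2-1. As1-1 rose by 0.29, tfl2-1 fell by 0.87 and as1-1 tfl2-1 fell by 4.62, a departure of -4.04 ± 0.11 (adjusted p = 2.3e-05). The other 2 aliphatic genes below were BCAT4 (-0.64) and the regulator MYB29 (-0.5). The 4 above, FMO GS-OX3, AT2G31790, SOT18 and BAT5, lay between 0.29 and 0.4. They numbered 0 without WT replicate 1, as1-1 replicate 1 or tfl2-1 replicate 2, and 1 without as1-1 replicate 2, tfl2-1 replicate 1 or either as1-1 tfl2-1 array.

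In the indole branch the regulator MYB34 departed by 1.5 and the entry enzyme CYP79B2 by 1.12. MYB34 was at 12.13 and 12.05 in WT, 11.12 and 11.26 in as1-1, 10.15 and 10.26 in tfl2-1, and 10.9 and 10.72 in as1-1 tfl2-1. It fell with as1-1 in the WT background and rose with it in the tfl2-1 background (adjusted p of the departure = 0.00095). SOT16 and UGT74B1 were the other 2 above, both at 0.35. CYP81F2, which modifies the indole core, was below at -0.75 (-0.45 under normexp), as was MYB51 at -0.46. The number above was 2 without any 1 of the as1-1 or tfl2-1 arrays or as1-1 tfl2-1 replicate 2.

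Of 14 flavonoid genes, 4 were above and 4 below, against 11.1% and 8.81% of all genes. The 4 above were TT4 (0.56), F3H (0.73), MYB111 (0.81) and FLS1 (1.21). FLS1 fell by 0.94 in as1-1 and rose by 0.28 with as1-1 in the tfl2-1 background. The 4 below, DFR, GSTF12, UF3GT and TT8, belong to the anthocyanin branch and its regulation. DFR was at 7.1 and 7.28 in WT, 6.92 and 6.94 in as1-1, 6.98 and 6.99 in tfl2-1, and near background in as1-1 tfl2-1, at least 10.5-fold below WT. Neither single mutant differed from WT in this gene at an adjusted p under 0.05, and the departure was at most -2.94 (-1.32 under normexp). GSTF12 departed by at most -1.98 on the probe used, but a second probe gave 0.60. UF3GT was near background in tfl2-1 and as1-1 tfl2-1 and stood at -0.16 under normexp (adjusted p = 0.241). With genes required to be well above background on all 8 arrays, 0 flavonoid genes were called below.

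Photosynthesis genes were little touched by as1-1 in the WT background, where 1 of 50 rose and 2 fell, against 7.06% and 11% of all genes. In the tfl2-1 background 24 of 50 fell with as1-1, against 16.2% of all genes. Their departures had a median of -0.22, with 12 below, against 8.81% of all genes, and 1 above (LHCB4.3, 0.43). LHCB2.1, a light-harvesting protein of photosystem II, was at 8.61 and 8.64 in WT, 8.56 and 8.59 in as1-1, 8.13 and 8.12 in tfl2-1, and 5.89 and 5.95 in as1-1 tfl2-1. Its departure was -2.16 ± 0.065 (adjusted p = 3.31e-05). A second LHCB2.1 probe gave -0.69, and the mean of the probes gave -1.42. LHCB2.3 departed by -1.15, PSAH2 by -0.76 and LHCB3 by -0.75. The count below was 7 without either as1-1 array or tfl2-1 replicate 2, 6 without as1-1 tfl2-1 replicate 1, and 24 with the mean of a gene's probes.

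MSRB6, a methionine sulfoxide reductase, fell in each mutant and further than the sum in the combination. It was at 12.3 and 12.4 in WT, 11.79 and 11.66 in as1-1, 8.42 and 8.41 in tfl2-1, and 4.75 and 4.99 in as1-1 tfl2-1. The 4 genotypes did not overlap, and the departure was -2.92 ± 0.13 (adjusted p = 0.000114), or -1.56 under normexp. The sugar transporter gene SWEET4 was at 7.79 and 7.61 in WT, 8.26 and 8.15 in as1-1, 8 and 8.06 in tfl2-1, and 6.63 and 6.71 in as1-1 tfl2-1. It rose in each single mutant and fell below WT in the combination, a departure of -1.86 ± 0.11 (adjusted p = 0.000326).

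Among the 10 largest positive departures with signal on all arrays, AY075597 and BX825247, transcripts matched to no gene here, were 5.35 and 5.02. AY075597 was at 12.16 and 12.28 in WT, 5.96 and 5.8 in as1-1, 12.23 and 12.1 in tfl2-1, and 11.17 and 11.18 in as1-1 tfl2-1. Only the as1-1 arrays were low, although as1-1 tfl2-1 carries the same allele. AT4G12490, a lipid transfer protein of the EARLI1 type, departed by 3.25 ± 0.2 (adjusted p = 0.000375), with as1-1 below WT by 1.27 and as1-1 tfl2-1 above tfl2-1 by 1.98. MRD1 departed by 2.88, AT4G33560 by 2.86 and FAF2, of a family of meristem size regulators, by 2.42. LEA7, a late embryogenesis abundant protein, rose by 2.01 in as1-1, by 4.1 in tfl2-1 and by 2.46 in as1-1 tfl2-1, a departure of -3.65 ± 0.22 (adjusted p = 0.000371).

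Of 15 Polycomb genes, which encode the complexes whose mark TFL2 reads, RING1B (0.54, or 0.35 under normexp) and EMF1 (0.39) were above and 0 below (3 above and 0 below at an unadjusted p under 0.05 in limma). Of all genes, 11.1% were above and 8.81% below, so the Polycomb count above was near the share of all genes. EMF1 lost its call without either as1-1 array or tfl2-1 replicate 2. Among 8 GH3 genes, which conjugate hormones to amino acids, GH3.17 departed by 0.82 and DFL2 by 0.67, while DFL1 (0.07) and JAR1 (0.07), which activates jasmonate, were additive. JAR1 stood at -0.3 as the mean of its probes, and its other 2 probes gave -0.08 and -0.88, the second outside the additive limit. DFL2 fell by 0.99 in as1-1, by 0.9 in tfl2-1 and by 1.22 in as1-1 tfl2-1, short of the sum. Of 25 heat shock genes, 9 were above and 0 below (11 and 3 at an unadjusted p under 0.05 in limma), against 11.1% and 8.81% of all genes. Hsp70-2 led them at 1.28 ± 0.1 (adjusted p = 0.000921). The heat shock count was 5 without either WT array, as1-1 replicate 1, tfl2-1 replicate 1 or either as1-1 tfl2-1 array, and 5 with no filter on dim probes. Another heat shock gene, HSC70-1, was 0.54 on the probe used and -0.01 as the mean of its probes. Of 40 glutathione transferases, 9 were above and 3 below, and the count below was near the share of all genes. GSTF2, at 0.87, stood at 0.49 as the mean of its probes. The number above was 5 without as1-1 replicate 2 or either as1-1 tfl2-1 array.

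Of 147 cytochrome P450 genes, 25 were above and 21 below, and of 51 UGT glycosyltransferases 9 were above and 6 below, against 11.1% and 8.81% of all genes. The P450 count below fell to between 10 and 13 without any single array other than WT replicate 2, and the UGT count above to 4 or 5 without any 1 of the as1-1, tfl2-1 or as1-1 tfl2-1 arrays. CYP706A3, a P450 gene, departed by 1.59 ± 0.077 (adjusted p = 0.000148), since it fell by 0.56 with as1-1 in the WT background and rose by 1.03 in the tfl2-1 background. Of 52 ribosomal protein genes, 46 were not called, 5 were above (RPL3B, RP1, SAG24, EMB3010 and RPS15AD, between 0.23 and 0.45) and 1 below (RPL9, -0.3). These calls depended on the scaling, since with each array set to its 75th percentile 0 were above and 3 below, and leaving out 1 array left 0 to 3 above.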

How the data were processed

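Whole seedlings of WT, of each mutant and of their combination were measured on 1-colour (Cy3) Agilent arrays, 2 per genotype. The deposited scanner files hold spot intensities that Agilent Feature Extraction 10.7 had background-corrected, per the file headers and the submitters' processing notes. The values used are the deposited log2 table, whose column medians run from 7.6809 to 7.6817. It follows the log2 processed signal of each array (r 0.9987 to 1), and how it was made is not given in the sources used here. Gene names came from the scanner files' probe annotation, brought up to date through a RefSeq gene table.

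Of 43603 non-control probes, 34285 carried a locus and 30467 were kept, being well above background on both arrays of at least 1 genotype. The brightest kept probe stood for a gene, which left 22668 genes, 19000 of them with a locus. A linear model with 4 genotype means was fitted in limma 3.58.1 (R 4.3.3) with an empirical Bayes variance prior (4 residual and 2.04 prior degrees of freedom). The interaction was tested two-sided and all p-values were adjusted by Benjamini-Hochberg over the 22668 genes, with a threshold of 0.05. Adding the slide as a term left the fit identical. The fit was tested on simulated data. The median standard error of a departure was 0.1 (5th to 95th percentile 0.06 to 0.4), and with 2 arrays per genotype the estimates are coarse. Where a genotype was not well above background, a bound was given, taking for each array the higher of the probe's value and the lowest signal well above background.

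The members and lists were chosen with earlier results of these data known. The genes named are AS1, TFL2 and the KNOX genes; the 10 largest departures in each direction and the 3 largest of each class and direction with signal on all 8 arrays; up to 4 called and 2 additive members of each list; and the members of any list with a count of 5 or fewer. Genes named outside this rule (AN3, AT1G76640, AT2G28085, AT4G38840, GA20OX2, RAP2.6 and TT8 among them) were chosen after their values were seen. The alternatives were other scalings, normexp background correction, other filters, other probe rules, a level-dependent variance prior, a replicate block, other class limits and leaving out each array in turn. The linear-scale sign and the other probes of named genes were added after seeing the data.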

Additional observations from a re-analysis of the deposited data

Results flagged for a closer look

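The difference between the response to as1-1 in the WT background and in the tfl2-1 background is itself the interaction tested in limma, and it was called for 2513 genes above and 1997 genes below the additive level. Among the 10 largest departures in each direction with signal well above background on all 8 arrays, 14 genes were also called in opposite directions in the 2 backgrounds. As1-1 raised SRO5 (departure -5.21), CBF1 (-4.93), BPS3 (-4.38), CML37 (-4.1), IMS2 (-4.04), LEA7 (-3.65) and CML38 (-3.62) in the WT background and lowered them in the tfl2-1 background. It lowered AT4G12490 (3.25), MRD1 (2.88), AT4G33560 (2.86), NIMIN1 (2.76), PDF1.2 (2.74), AT5G56840 (2.55) and GRF6 (2.5) in the WT background and raised them in the tfl2-1 background. The adjusted p of these departures ran from 1.64e-05 for CBF1 to 0.000396 for PDF1.2. No cause of these reversals was tested.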

How the results depend on the processing

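Of 206 named genes with a called departure, 151 kept the call under every alternative and 202 kept the sign. Over the alternatives that use all arrays, 90 comparisons lost and 12 gained the call. Without 1 array, 284 comparisons lost it and 0 turned sign. The genes above the additive level numbered 1241 to 2065 and those below 1319 to 1672 without 1 array. In the same fits 456 to 552 genes were beyond the sum, 695 to 1199 short of it, 350 to 416 opposite to it, 1049 to 1570 had a near-zero sum and 361 to 829 were additive. Under normexp, 235 were opposite to the sum. With a near-zero limit of 0.25, 1101 were beyond the sum, 870 opposite and 1214 near zero, and with a limit of 1, 324 were beyond, 665 short and 149 opposite, because the limit itself moves genes between classes. Without a filter on dim probes, 3276 of 34285 genes were called (9.56%). Direction turned for SHP1 under normexp (0.35), for FHL with the mean of its probes (0.37) and on its other probe (1.1), for GSTF12 on its other probe and with the filter that selects it (0.60), for BES1 (-0.06) and PAL1 (0.03) on another probe, and for SESA3 with no filter (-1.45). HSC70-1 gave -0.01 as the mean of its probes and -0.35, -0.63, -0.26 and -0.16 on 4 of them. The cause of these changes was not tested. Of the 1147 called genes with more than 1 kept probe, 981 (85.5%) had departures of the same sign on all their kept probes. Same-numbered arrays did not deviate together (correlations -0.04 to 0.02), so the numbers pair nothing. With the replicate number as a block, 1846 genes were above and 1613 below the additive level. Dim genes are the limit of the arrays, since the size of their departures depended on the background correction. The median of the CBF and DDF group, for example, was -5.47 in the main fit and -3.21 under normexp.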
